A study of Arabidopsis thaliana with 27 samples.

Results

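The comparison described here set roots of Arabidopsis thaliana seedlings given N-linoleoylethanolamine (NAE 18:2) against roots of seedlings given the solvent dimethyl sulfoxide (DMSO). It took 6 of the 27 libraries of the series, namely the 3 labelled as NAE 18:2 roots and the 3 labelled as DMSO roots, and asked which of 20138 tested genes, out of 32833 in the count table, differed in transcript level. All seedlings were Columbia wild type (Col-O in the labels), 3 days old and grown in shaken liquid medium with 1% sucrose. They were moved in groups of 50 to 25 mL of medium without stated sucrose, treated for 1 h by the labels and for between 1 and 3 hr by the study's methods, and then divided into roots, cotyledons and whole seedlings. The DMSO group received 0.2% DMSO and the NAE 18:2 group 40 µM NAE 18:2, for which the labels state no share of solvent. Roots given N-linolenoylethanolamine (NAE 18:3), at 70 µM by the labels and 80 µM by the series description, were part of the root fit. Their spread therefore enters the p-values of the root comparison. Otherwise they and the cotyledons from the DMSO and NAE 18:2 treatments are used below only to place the root values. Each group had 3 libraries, which the study's methods call biological replicates without saying whether each came from its own culture, and the p-values measure the spread between these libraries.

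N-acylethanolamines are a small class of lipid amides. Plant seeds hold several of them, and those with 18 carbons and several double bonds decline as a seedling establishes. Fatty acid amide hydrolase splits them into the free acid and ethanolamine, and 9-lipoxygenases oxidise the polyunsaturated ones to hydroxylated oxylipins. Added to young seedlings, NAE 18:2 is known to slow growth of the primary root. Plants meet reactive lipids and oxylipins largely as they meet foreign chemicals, by joining them to glutathione or glucose and exporting the products, and an impaired mitochondrial electron transport chain calls up alternative oxidases through a promoter sequence known as the mitochondrial dysfunction motif.

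Read depth was similar in both groups, with 19812956 to 26798705 counts in DMSO roots and 21429356 to 25002522 in NAE 18:2 roots. Values below are CPM (counts scaled to a library of 1000000, with TMM factors over all 27 libraries) and always follow replicates 1, 2 and 3, errors after a CPM mean are standard deviations over 3 libraries, and errors after a log2 fold change are standard errors of the edgeR fit. A gene was called at an adjusted p under 0.01, together with a fold change over 2, both from the edgeR quasi-likelihood fit, with the Benjamini-Hochberg method applied across every tested gene. The labelled organ was checked with markers, and the 13 cotyledon mesophyll markers summed to between 44.6 and 86.8 CPM in the 6 root libraries and to between 78730 and 98790 CPM in DMSO cotyledons. On the first 2 principal components of the 9 root libraries, which held 61% and 24.5% of the variance, NAE 18:2 replicate 2 lay nearest to the DMSO roots (-53.3 and 59.6, beside -19.4 and 82.1 for replicate 1 and -26.9 and 73 for replicate 3). Transcripts of the plastid and mitochondrial genomes summed to between 814 and 2949 CPM in DMSO roots and to between 2386 and 9364 CPM in NAE 18:2 roots, the highest in replicate 3, and none of the 71 tested organelle genes was called by edgeR (15 higher and none lower at an unadjusted p under 0.05), and at most 1 was called under any alternative, by DESeq2. Their part in the results below was not tested.

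More genes were called higher than lower with NAE 18:2, although at an unadjusted p under 0.05 alone the numbers were close, 4651 higher and 4500 lower. By the edgeR test 1143 genes were called higher, which is 5.68% of those tested, and 610 were called lower, which is 3.03%. These shares are the background for the edgeR counts of called members in each list below. The genes that rose moved further than those that fell: the median log2 fold change was 2.00 among the former and -1.74 among the latter, and 76 genes rose but 8 fell by more than 5 on that scale. Each of the 1753 called genes had its 3 NAE 18:2 libraries on a single side of the 3 DMSO libraries, whereas among all tested genes 28.1% lay wholly higher and 23.1% wholly lower. The balance depended on the scaling, since the higher genes made up 65.2% of calls with TMM and 55.0% with upper quartile scaling, under which the middle gene of all those tested lay at -0.14 rather than -0.02 on the log2 scale. Without DMSO replicate 2, DMSO replicate 3 or NAE 18:2 replicate 1 the genes called higher fell to 640, 753 and 752, and without any single library other than NAE 18:2 replicate 2, whose removal gave 801, the genes called lower numbered between 262 and 340.

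**Figure D1:**
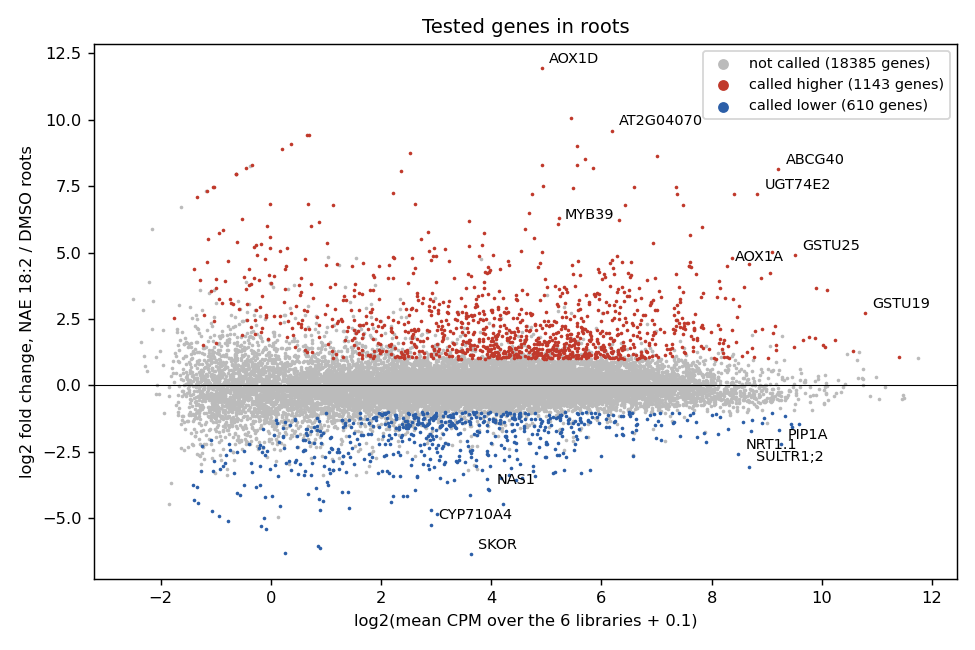
Each point is a tested gene, with the log2 of its mean CPM over the 6 root libraries plus 0.1 on the x axis and its fitted log2 fold change, NAE 18:2 over DMSO, on the y axis. The 1143 genes called higher (red) reach further from 0 than the 610 called lower (blue), and abundant genes appear on both sides, such as GSTU19 and ABCG40 above and SULTR1;2, NRT1.1 and PIP1A below.

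Genes of the alternative respiratory pathway rose. Alternative oxidases pass electrons from ubiquinol straight to oxygen, and type II NAD(P)H dehydrogenases feed electrons into ubiquinone without pumping protons. Of 11 tested members, 7 were called higher and none lower, and the median log2 fold change of the list was 2.08 beside -0.02 over all tested genes. AOX1A (AT3G22370), the main stress-inducible oxidase, measured 25.8, 18.4 and 33.4 CPM in DMSO roots and 614, 561 and 619 CPM in NAE 18:2 roots (log2 fold change 4.47 ± 0.31, adjusted p = 0.000108). AOX1D (AT1G32350), a second oxidase, measured 0.0288, 0 and 0 CPM in DMSO roots, all at or under the floor of 3 counts, and 83.5, 41 and 56.7 CPM in NAE 18:2 roots, at least 622-fold higher when set against that floor per library (adjusted p = 0.000264). Every treated library therefore held both oxidases far above every control, and the lowest AOX1D value was that of replicate 2.

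Genes for the dehydrogenases rose as well. NDB2 (AT4G05020), which faces the intermembrane space, went from 82, 62.8 and 82.1 to 333, 316 and 349 CPM (log2 fold change 2.08 ± 0.18, adjusted p = 0.000179). NDA1 (AT1G07180), which faces the matrix and is known as a light-responsive gene of leaves, went from 1.44, 0.332 and 2.17 to 20.7, 24.9 and 24.3 CPM (log2 fold change 4.12 ± 0.53, adjusted p = 0.000994). Neither gene had overlapping groups.

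The wider set of 14 genes that respond to impaired mitochondria, with the NAC factors that regulate them, had 9 members called higher, none lower and a median log2 fold change of 3.13. Its members UGT74E2, GSTU24 and GSTU25, all called higher, are counted again below in the lists of glutathione transferases and glucosyltransferases, so these lists are not independent. UGT74E2 (AT1G05680), which glucosylates the auxin indole-3-butyric acid, measured 3.43, 2.2 and 12.5 CPM in DMSO roots and 1047, 762 and 903 CPM in NAE 18:2 roots (log2 fold change 7.18 ± 0.74, adjusted p = 0.000377). AT2G41730, annotated as a calcium-binding site protein, went from 1.27, 0.664 and 2.66 to 183, 169.8 and 157 CPM (log2 fold change 6.77 ± 0.48, adjusted p = 0.000123). The mitochondrial protein gene UPOX (AT2G21640) went from 1.61, 2.05 and 13 to 139, 139 and 134 CPM (log2 fold change 4.60 ± 0.83, adjusted p = 0.00423). DMSO replicate 3 was the highest control for each of these 3 genes, and the call of UPOX was lost without DMSO replicate 1 or 2 or NAE 18:2 replicate 1 or 3, with adjusted p between 0.0128 and 0.019. The membrane-bound factor ANAC013 (NAC13), which binds the mitochondrial dysfunction motif, and the outer membrane protein OM66 (BCS1 in the annotation) fall outside the naming rule and were chosen after their values were seen. ANAC013 (NAC13) rose from 7.2 ± 3.24 to 127 ± 10.8 CPM (adjusted p = 0.00022, n = 3 in each group, from the edgeR fit across all genes), and OM66 (BCS1) from 35.8 ± 14.6 to 420.5 ± 77.8 CPM (adjusted p = 0.000369).

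The mitochondrial dysfunction motif, searched on both strands as CTTG followed after 5 bases by CAAG or CACG in the 250 bases before the annotated transcript start, was present before 52 of the 1143 genes called higher (4.55%), 1 of the 610 called lower (0.164%) and 202 of the 20066 tested genes with a readable window (1.01%). In the 100 bases before the start these shares were 2.36%, 0.164% and 0.404%. A selection of sites is printed to show the motif in its context (the described genes CYP710A1, NAC044, AT1G68850 and ELF4 also had a match and are not shown), with 20 bases on either side, the motif in capitals, read on the strand of the gene in TAIR10.1 (RefSeq), and with the distance of the first base of the motif from the annotated start.
AT5G55150, chr5:22383465-22383517 (- strand), 105 bases before the start: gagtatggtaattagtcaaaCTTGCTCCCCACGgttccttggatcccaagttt
AT5G55150, chr5:22383448-22383500 (- strand), 88 bases before the start: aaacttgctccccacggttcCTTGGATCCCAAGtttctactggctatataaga
AT2G04050, chr2:1339651-1339703 (- strand), 215 bases before the start: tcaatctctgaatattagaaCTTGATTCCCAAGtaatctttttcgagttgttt
AT2G04050, chr2:1339592-1339644 (- strand), 156 bases before the start: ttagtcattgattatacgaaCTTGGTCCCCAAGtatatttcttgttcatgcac
CYP81D8, chr4:17571851-17571903 (- strand), 140 bases before the start: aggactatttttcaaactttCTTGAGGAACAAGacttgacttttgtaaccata
UPOX (AT2G21640), chr2:9254307-9254359 (+ strand), 51 bases before the start: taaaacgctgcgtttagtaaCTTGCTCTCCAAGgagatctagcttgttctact
NDA1, chr1:2204014-2204066 (+ strand), 70 bases before the start: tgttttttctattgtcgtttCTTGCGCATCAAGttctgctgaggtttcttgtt
NDB2, chr4:2572328-2572380 (+ strand), 79 bases before the start: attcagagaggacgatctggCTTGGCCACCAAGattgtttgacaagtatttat
EXPA14, chr5:22808522-22808574 (+ strand), 99 bases before the start: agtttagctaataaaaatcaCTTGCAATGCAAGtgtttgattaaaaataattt
EXPA14, an expansin, is the single gene called lower with the motif (52.1, 54 and 48.5 CPM against 8.1, 20.5 and 7.67 CPM), and among the single libraries only NAE 18:2 replicate 2 could be left out with its call kept. The F-box gene AT5G55150 and the MATE transporter gene AT2G04050 each carried 2 copies. A match of letters is a description of the sequence and does not show that a factor binds there. Most called members of the mitochondrial lists had no match in this window. The motif stood before 3 of the 7 alternative respiration genes called higher and 1 of the 9 mitochondrial stress genes called higher. AOX1A, AOX1D, UGT74E2 and AT2G41730 were among those without it.

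Other stress motifs were counted in the same windows. The W-box core TTGAC, bound by WRKY factors, was found before 57.8% of the genes called higher, 48.2% of those called lower and 45.6% of all tested genes. The as-1 core TGACG, bound by TGA factors, was found before 25.0%, 18.0% and 19.3%, and these motifs overlap where a promoter reads TTGACG. The ABRE core ACGTG of abscisic acid responses stood before 28.8%, 27.4% and 23.8%, the rapid stress response element CGCGTT before 4.2%, 1.15% and 2.84%, and the auxin response element TGTCTC before 10.1%, 11.0% and 10.6%. The G-box CACGTG, which contains the ABRE core, stood before 7.52%, 6.56% and 7.3%, and the heat shock element (GAA, TTC and GAA, or TTC, GAA and TTC, each 2 bases apart) before 0.7%, 0% and 0.424%. All were searched on both strands. Genes of each called class also had fewer exons, with a median of 3 exons among those called higher, 2 among those called lower and 4 among all tested, and single-exon genes made up 26.3%, 29.7% and 16.6%.

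**Figure D2:**
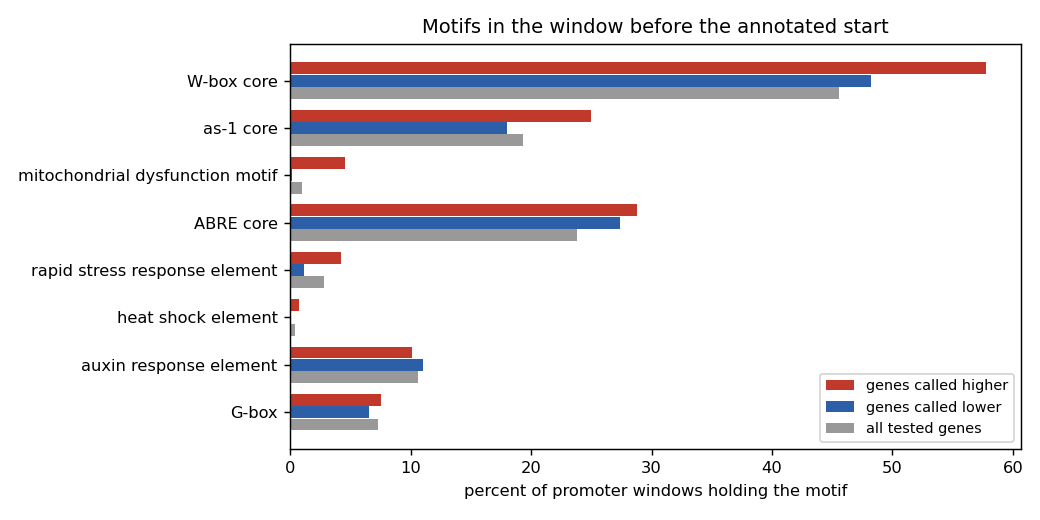
Bars give the percent of 250-base windows before the annotated start that hold each motif on either strand, for the 1143 genes called higher (red), the 610 called lower (blue) and all 20066 tested genes with a window (grey). The mitochondrial dysfunction motif stands at 4.55%, 0.164% and 1.01%, while the auxin response element and the G-box differ little between the classes.

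Genes for enzymes that conjugate reactive chemicals rose, several of them to abundant levels. Glutathione S-transferases join glutathione to electrophiles, and of 36 tested genes of this family 16 were called higher and 2 lower, with a median log2 fold change of 1.29. The lower count was 1 without any single library other than NAE 18:2 replicate 2. GSTU25 (AT1G17180) measured 70.7, 25.2 and 40.9 CPM in DMSO roots and 1510.0, 1317 and 1398 CPM in NAE 18:2 roots (log2 fold change 4.90 ± 0.45, adjusted p = 0.000258). Its neighbour on chromosome 1, GSTU24 (AT1G17170), went from 62.9, 41 and 52.4 to 1129, 966 and 942 CPM (log2 fold change 4.23 ± 0.32, adjusted p = 0.000139). GSTU19 (AT1G78380), already abundant in control roots, went from 531, 367 and 451 to 3536, 2499 and 3163 CPM (log2 fold change 2.71 ± 0.23, adjusted p = 0.000158). For all 3 genes the lowest treated library lay far above the highest control.

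The tau-class genes GSTU3 and GSTU9 rose from low and middling levels. GSTU3 (AT2G29470) went from 0.749, 0.302 and 0.418 to 98.9, 74.9 and 94.1 CPM (log2 fold change 7.42 ± 0.89, adjusted p = 0.000706) and GSTU9 (AT5G62480) from 16.9, 12.9 and 20.1 to 397, 404 and 334 CPM (log2 fold change 4.46 ± 0.45, adjusted p = 0.000369). ERD9 (AT1G10370, also GSTU17) moved the other way, from 56.4, 71.3 and 77.6 to 26.1, 24.9 and 12.6 CPM (log2 fold change -1.75 ± 0.26, adjusted p = 0.00168). The number of family members called higher was between 11 and 19 over the 13 alternatives.

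UDP-glucosyltransferases attach glucose to small molecules and so make them soluble and exportable. Of 12 tested genes of groups UGT73 and UGT74, 9 were called higher and 1 lower, with a median log2 fold change of 3.30. UGT73C5 (DOGT1, AT2G36800), which glucosylates the fungal toxin deoxynivalenol and brassinosteroids, measured 0.0288, 0.393 and 0.418 CPM in DMSO roots and 123, 92.6 and 94 CPM in NAE 18:2 roots (log2 fold change 8.51 ± 0.69, adjusted p = 0.000161). UGT73B2 (AT4G34135), a flavonol glucosyltransferase, went from 19.6, 10.3 and 14 to 434, 330.1 and 364 CPM (log2 fold change 4.63 ± 0.48, adjusted p = 0.000388), and UGT73B4 (AT2G15490) from 42.9, 22.9 and 35 to 576, 415 and 602 CPM (log2 fold change 3.92 ± 0.32, adjusted p = 0.000162). UGT73B4 overlaps UGT73B5 in the annotation, and how the counting assigned reads between overlapping genes, or by strand, is not given in the sources used here. The same limit holds for ABCB4, AT3G54520, ATAF2, CYP81D11, DREB2A, DTX1, ERD9, ERDJ3A, GL3, NAC102, TCH3 and 4CL5, which also overlap a neighbour. The member that fell was UGT74B1 (AT1G24100), which makes glucosinolates rather than conjugating foreign compounds (129.6, 124 and 118 against 61, 67.9 and 60.3 CPM, adjusted p = 0.00114), and its change stayed under 2-fold without DMSO replicate 1 or NAE 18:2 replicate 1 or 3.

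Several transporter genes were called higher. ABCG40 (AT1G15520), a plasma membrane importer of abscisic acid that is also known as a pleiotropic drug resistance transporter, measured 3.49, 4.17 and 4.48 CPM in DMSO roots and 1369, 889 and 1279 CPM in NAE 18:2 roots, a fitted 279.7-fold rise (log2 fold change 8.13 ± 0.49, adjusted p = 5.86e-05). A cluster of MATE carriers on chromosome 2 had 3 of 6 tested members called higher and none lower. AT2G04070 went from 0.317, 0.181 and 0 to 139, 157 and 139.8 CPM (log2 fold change 9.58 ± 0.99, adjusted p = 0.000383), AT2G04050 from 0.547, 0.393 and 4.64 to 360.2, 305 and 313 CPM (log2 fold change 7.46 ± 0.97, adjusted p = 0.00101), and DTX1 (AT2G04040), which exports plant alkaloids and other small molecules, from 4.32, 2.9 and 7.71 to 177, 127 and 148 CPM (log2 fold change 4.87 ± 0.52, adjusted p = 0.000447). ABCB4 (AT2G47000), an auxin carrier of root hairs and epidermis, rose from 206, 120.0 and 155 to 2010.0, 2042 and 2015 CPM (log2 fold change 3.60 ± 0.37, adjusted p = 0.000379), with closely similar values in the treated libraries.

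Genes known to answer oxylipins and foreign chemicals had 6 of 12 tested members called higher and none lower, and a median log2 fold change of 0.65. GSTU19, counted above among the glutathione transferases, is a member of this list as well. The cytochrome P450 CYP81D8 (AT4G37370) went from 2.04, 1.69 and 2.66 to 395, 282 and 305 CPM (log2 fold change 7.21 ± 0.34, adjusted p = 2.9e-05), and CYP81D11 (AT3G28740) from 29.9, 13.1 and 19 to 403, 256 and 532 CPM (log2 fold change 4.2 ± 0.57, adjusted p = 0.00117). OPR1 (AT1G76680), a reductase of reactive oxylipins that is not the jasmonate-forming isoenzyme, went from 177, 99.6 and 122 to 2209, 1352 and 1759 CPM (log2 fold change 3.68 ± 0.32, adjusted p = 0.000205), although it overlaps its neighbour OPR2 in the annotation.

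The as-1 core was found in the 250-base window of 11 of the 16 glutathione transferase genes called higher, 6 of the 9 glucosyltransferase genes called higher and 3 of the 3 MATE genes called higher, beside 25.0% of all genes called higher. A selection of sites of the genes described above is printed to show the context of this core. A site of AT2G04050 and a further site each of GSTU9 and UGT73B4 are not shown. The core is in capitals on the strand of the gene, as TGACG or as its reverse complement CGTCA, from the same TAIR10.1 sequence (the AT2G04070 site lies at the edge of its window and is shorter).
GSTU25, chr1:5871917-5871961 (+ strand): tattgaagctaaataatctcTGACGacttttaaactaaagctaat
GSTU24, chr1:5869354-5869398 (+ strand): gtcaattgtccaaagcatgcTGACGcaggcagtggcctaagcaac
GSTU3, chr2:12629721-12629765 (- strand): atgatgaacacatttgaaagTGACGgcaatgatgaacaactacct
GSTU9, chr5:25089746-25089790 (- strand): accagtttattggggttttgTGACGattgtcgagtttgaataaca
DOGT1, chr2:15425287-15425331 (- strand): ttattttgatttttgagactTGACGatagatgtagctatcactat
UGT73B4, chr2:6761456-6761500 (+ strand): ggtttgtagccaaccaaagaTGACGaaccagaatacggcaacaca
AT2G04070, chr2:1356103-1356133 (- strand): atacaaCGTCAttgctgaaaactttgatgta
DTX1, chr2:1336569-1336613 (- strand): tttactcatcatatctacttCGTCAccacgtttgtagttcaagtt
These counts describe the promoters and are no test of the motif.

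**Figure D3:**
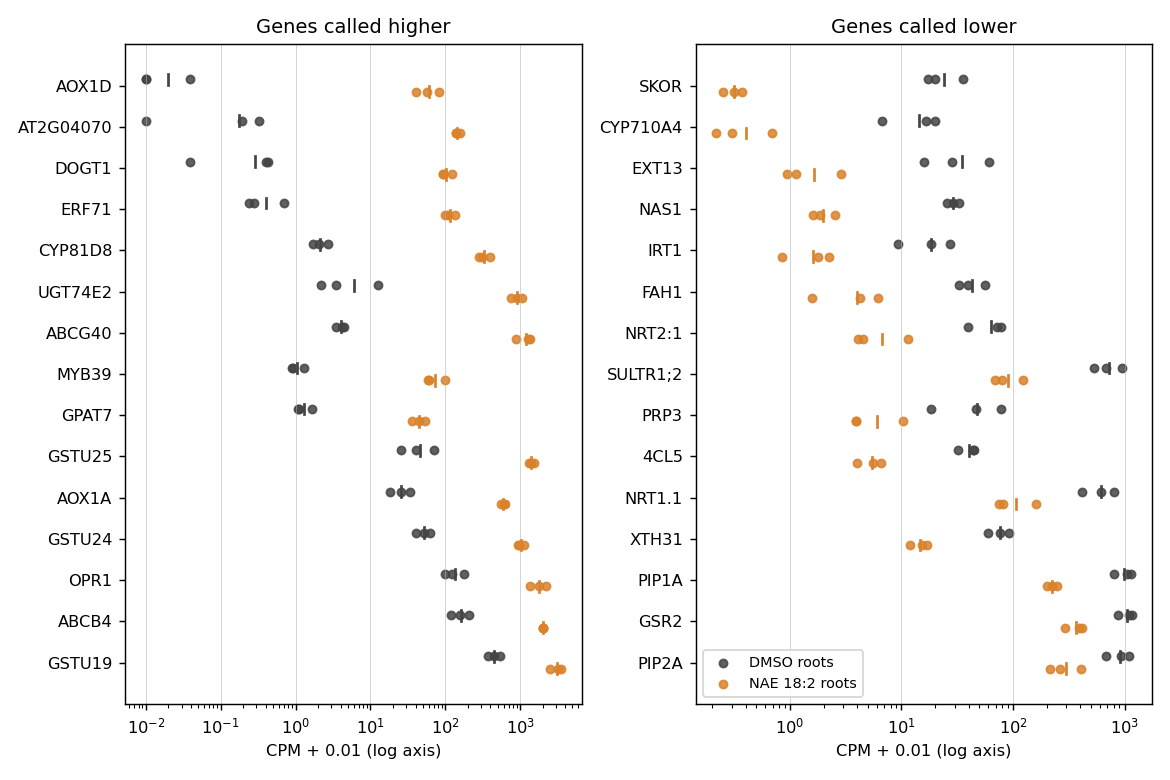
Dots are single libraries and short vertical bars are group means, with CPM plus 0.01 on log axes, for 15 genes called higher (left) and 15 called lower (right), DMSO roots in grey and NAE 18:2 roots in orange. The groups do not overlap in any of the 30 genes, and the control values of AOX1D and AT2G04070 include libraries at 0.

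Several of the steepest rises lay outside these lists. AT5G55150, an F-box protein with a DUF295 domain, went from 0.115, 0.0604 and 0.038 to 129, 54.9 and 75.9 CPM (log2 fold change 10.05 ± 0.71, adjusted p = 0.000116). AT5G43450, a 2-oxoglutarate-dependent oxygenase of unknown substrate, went from 0.691, 0.211 and 0.988 to 238, 288 and 244 CPM (log2 fold change 8.65 ± 0.76, adjusted p = 0.000217). ERF71 (HRE2, AT2G47520), an ethylene response factor of group VII that is known from low oxygen, went from 0.23, 0.272 and 0.684 to 136, 99.3 and 108 CPM (log2 fold change 8.17 ± 0.43, adjusted p = 4.63e-05). AT1G55230 (a DUF716 protein), the ankyrin gene AT1G34050 and AT3G54520 (unknown function) reached means of 93.9, 93.4 and 60.5 CPM from control means of 0.189, 0.264 and 0.191 CPM. The berberine bridge enzyme-like gene AT1G26390 and the SKU5-like gene sks8 were at or under 3 counts in every control library and rose at least 116-fold and 104-fold over that floor. Among abundant transcripts, DJ1A (AT3G14990), a deglycase-like protein linked to oxidative stress, rose from 619.7, 416 and 592 to 2161, 1457 and 1990.0 CPM (log2 fold change 1.73 ± 0.21, adjusted p = 0.000662), and the glycolytic enzyme gene GAPC1 (AT3G04120) from 1536, 1484 and 2076 to 3330.0, 4136 and 3734 CPM (log2 fold change 1.08 ± 0.17, adjusted p = 0.00197), a change that fell under 2-fold with upper quartile scaling or without NAE 18:2 replicate 2 and missed the p threshold without DMSO replicate 2.

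Enzymes, exporters and regulators of suberin were called higher in 9 of 17 tested members and lower in none. Suberin is the fatty polyester that endodermal and exodermal cells lay down as a barrier. The median log2 fold change of the list was 1.31, and 14 members, beside 28.1% of all tested genes, had each treated library above every control. MYB39 (AT4G17785), a factor that switches on suberin genes in the endodermis, measured 0.893, 1.3 and 0.912 CPM in DMSO roots and 97.8, 60.8 and 58.7 CPM in NAE 18:2 roots (log2 fold change 6.06 ± 0.54, adjusted p = 0.000219). GPAT7 (AT5G06090), an acyltransferase of wound suberin, went from 1.09, 1.66 and 1.06 to 44.8, 36.4 and 53.9 CPM (log2 fold change 5.07 ± 0.50, adjusted p = 0.000323), and the suberin regulator MYB41 (AT4G28110) from 3, 4.29 and 5.13 to 44, 29 and 46.9 CPM (log2 fold change 3.22 ± 0.41, adjusted p = 0.000899). ABCG6 (AT5G13580), an exporter of suberin monomers, went from 2.77, 3.38 and 6.08 to 32.3, 45.2 and 59.4 CPM (log2 fold change 3.44 ± 0.53, adjusted p = 0.00201), with an adjusted p of 0.0131 without DMSO replicate 2.

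Suberin genes stood at other levels in roots given NAE 18:3. Against DMSO, 9 of the 17 members were called lower there and 1 higher, beside 16.8% and 5.94% of all tested genes. Their median log2 fold change was -1.55. The member called higher was MYB39 (log2 fold change 2.045, adjusted p = 0.00893 by edgeR). In those libraries MYB39 measured 1.9, 8.45 and 4.2 CPM, GPAT7 0.783, 3.9 and 1.43 CPM, MYB41 2.65, 8.56 and 4.6 CPM and ABCG6 0.484, 3.12 and 2.62 CPM. In the direct contrast of the NAE treatments, in which 15.3% of all tested genes were called higher and 1.91% lower in NAE 18:2 roots, 15 of the 17 suberin members were called higher in NAE 18:2 roots and none lower. For MYB39 this contrast was 4.01 on the log2 scale (adjusted p = 0.000325) and for ABCG6 4.60 (adjusted p = 0.000416). The doses differed, so the acyl chain and the dose cannot be told apart. The 14 genes of the endodermis and Casparian strip list, the lignified band of the same cell layer, had no member called by edgeR against DMSO, with a median log2 fold change of -0.45. Of these genes 6 lay lower at an unadjusted p under 0.05 and none higher, DESeq2 called 2 lower, and the fit of the 6 libraries and the fit without NAE 18:2 replicate 2 called 1 lower each. The 6 endodermis markers summed to between 224 and 459 CPM in DMSO roots and to between 188 and 272 CPM in NAE 18:2 roots.

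None of the 3 tested genes for enzymes that act on NAEs themselves was called by edgeR, with 1 higher and none lower at an unadjusted p under 0.05, while DESeq2 and the fit of 27 libraries called 1 higher each. The genes are named here outside the naming rule. FAAH, the hydrolase, measured 60.5, 55.5 and 60 CPM in DMSO roots and 67.1, 74.3 and 68.2 CPM in NAE 18:2 roots (log2 fold change 0.20 ± 0.12, adjusted p = 0.235). The 9-lipoxygenase gene LOX1 measured 42.5, 46.1 and 18.5 and 130.5, 121 and 79.3 CPM (log2 fold change 1.57 ± 0.43, adjusted p = 0.0233), with no overlap of the groups, and LOX5 17.3, 9.51 and 11.7 and 9.98, 10.2 and 11.6 CPM (adjusted p = 0.247).

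Several abscisic acid genes were called higher. Genes of abscisic acid synthesis and breakdown had 4 of 10 tested members called higher and none lower, with a median log2 fold change of 1.1. NCED3 (AT3G14440), the rate-limiting dioxygenase of stress-induced synthesis, went from 6.8, 3.5 and 3.65 to 26.2, 21.8 and 36.5 CPM (log2 fold change 2.54 ± 0.35, adjusted p = 0.00133), and CYP707A1 (AT4G19230), which breaks the hormone down, from 22.4, 13.3 and 10.8 to 46.9, 59.2 and 62 CPM (log2 fold change 1.8 ± 0.31, adjusted p = 0.00343). The call of CYP707A1 was lost without DMSO replicate 2 or 3 or NAE 18:2 replicate 3, with adjusted p between 0.0135 and 0.0189, and the count of 4 fell to 1 without DMSO replicate 2, DMSO replicate 3 or NAE 18:2 replicate 3 and to 2 without DMSO replicate 1 or NAE 18:2 replicate 2. None of 9 receptor genes was called by edgeR or DESeq2 (log2 fold changes between -0.91 and 0.94, with 1 higher and 3 lower at an unadjusted p under 0.05), although upper quartile scaling gave 1 lower call. None of 6 downstream transcription factor genes was called by edgeR (log2 fold changes between -0.47 and 1.47, with 2 higher and 1 lower at an unadjusted p under 0.05), and DESeq2 called 1 higher. Among 7 clade A phosphatases, which repress the pathway, 2 were called higher, a count that was also 2 without each single library in turn and 1 in the fit of 27 libraries, and ABI2 (AT5G57050) went from 4.12, 4.17 and 4.33 to 11.4, 10.1 and 11.8 CPM (log2 fold change 1.34 ± 0.20, adjusted p = 0.00172). The 10 effector genes of abscisic acid and cold had a median log2 fold change of -0.71 and a single edgeR call (DESeq2 called 2 other members lower and none higher), ERD6 (AT1G08930, a sugar carrier, 208, 171 and 144 against 423, 264 and 404 CPM), which was kept in 5 of 13 alternatives and was lost without DMSO replicate 2 or 3 or NAE 18:2 replicate 1 or 3, with adjusted p between 0.0235 and 0.0258.

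Genes for dehydration-responsive DREB2 factors rose. Of 6 tested CBF and DREB2 genes 3 were called higher, all of the DREB2 kind, and none lower. DREB2A (AT5G05410), a regulator of drought and heat genes, went from 11.2, 8.48 and 8.74 to 131, 77.7 and 112 CPM (log2 fold change 3.43 ± 0.28, adjusted p = 0.000161), and DREB2C (AT2G40340) from 4.7, 3.59 and 6.12 to 84.4, 55.1 and 60.5 CPM (log2 fold change 3.74 ± 0.43, adjusted p = 0.000577). Treated and control libraries did not overlap for either gene.

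Jasmonate, salicylate and ethylene synthesis lists gave at most 1 edgeR call in each direction, beside 5.68% higher and 3.03% lower among all tested genes. DESeq2 called 4 of 19 jasmonate repression and breakdown genes higher and 1 lower. Of 10 salicylic acid genes it called 3 higher and none lower, and of 12 ethylene synthesis genes 3 higher and 1 lower. At an unadjusted p under 0.05, 5, 6 and 7 members of these lists lay higher and 5, 0 and 2 lower. None of 15 jasmonate synthesis genes was called by edgeR or DESeq2, with log2 fold changes between -0.78 and 1.77, 5 higher and 3 lower at an unadjusted p under 0.05, and 1 higher call without NAE 18:2 replicate 2. Among 19 genes of jasmonate repression and breakdown, the oxidase CYP94B3 was called higher (26.2, 17.5 and 16.1 against 95, 102 and 61.4 CPM, adjusted p = 0.00993) and the repressor JAZ4 lower (10.6, 13.2 and 11.2 against 5.32, 6.54 and 5.82 CPM, adjusted p = 0.00225). CYP94B3 was called in 4 of 13 alternatives, and leaving out any single library ended its call, with adjusted p between 0.0177 and 0.0425. JAZ4 was not called without DMSO replicate 2 or NAE 18:2 replicate 1 or 3. Of 10 salicylic acid genes the receptor gene NPR3 was the single call (64.3, 47.9 and 43.9 against 124, 100.0 and 106 CPM, adjusted p = 0.00125), and it was not called without DMSO replicate 2 or 3 or NAE 18:2 replicate 1, with upper quartile normalization or with 27 libraries in the fit. Of 12 ethylene synthesis genes 1 was called higher and 1 lower, and ACS2 (AT1G01480), which makes the precursor, rose from 9.36, 9.21 and 12.2 to 50.8, 26 and 40.1 CPM (log2 fold change 1.86 ± 0.28, adjusted p = 0.00189), with an adjusted p of 0.0118 without DMSO replicate 2. Of 9 defence ERF factors, ERF6 (AT4G17490) rose from 41.2, 30.5 and 32.5 to 233, 94.4 and 172 CPM (log2 fold change 2.2 ± 0.28, adjusted p = 0.000932) and ERF2 (AT5G47220) from 8.04, 7.55 and 5.47 to 33.3, 15.5 and 33 CPM (log2 fold change 1.89 ± 0.28, adjusted p = 0.00179), both lowest in NAE 18:2 replicate 2 among the treated libraries.

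Genes for transcription factors of stress responses rose in several families. Of 62 tested WRKY genes 15 were called higher and 4 lower, with a median log2 fold change of 0.30, and the count of 15 fell to 8 without DMSO replicate 2 and to 9 without DMSO replicate 3. WRKY45 (AT3G01970), linked to phosphate uptake, went from 9.65, 7.43 and 9.08 to 209.9, 154 and 145 CPM (log2 fold change 4.22 ± 0.53, adjusted p = 0.00087), WRKY51 (AT5G64810), which acts with salicylate against jasmonate responses, from 7.4, 7.28 and 4.41 to 87.8, 48.9 and 70.4 CPM (log2 fold change 3.37 ± 0.37, adjusted p = 0.000492), and WRKY30 (AT5G24110) from 2.51, 1.45 and 1.03 to 16.1, 11.3 and 19.4 CPM (log2 fold change 3.15 ± 0.32, adjusted p = 0.000374). WRKY18 (AT4G31800), a repressor of defence genes, fell from 26.2, 32.1 and 27.2 to 15.1, 14.2 and 12.5 CPM (log2 fold change -1.09 ± 0.12, adjusted p = 0.000505), and without DMSO replicate 2 its log2 fold change of -0.99 lay inside the fold threshold. The count of 4 lower WRKY genes fell to 1 without DMSO replicate 2 and to 2 without DMSO replicate 1 or 3 or NAE 18:2 replicate 1 or 3.

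Stress NAC factors gave 8 of 13 tested members called higher, none lower and a median log2 fold change of 1.75. ATAF2 (AT5G08790) went from 123, 88.3 and 99.4 to 563, 369 and 465 CPM (log2 fold change 2.11 ± 0.22, adjusted p = 0.00034) and NAC102 (AT5G63790), known from low oxygen, from 156, 108 and 116 to 545, 348 and 440.4 CPM (log2 fold change 1.75 ± 0.21, adjusted p = 0.000588). NAC044 (AT3G01600), a factor of the DNA damage response, went from 0.72, 0.966 and 2.32 to 9.84, 10.7 and 10.4 CPM (log2 fold change 2.92 ± 0.38, adjusted p = 0.000963). The zinc finger repressors of the ZAT and AZF kind had 5 of 11 called higher, none lower. ZAT12 (RHL41, AT5G59820), a regulator of oxidative stress genes, went from 32.7, 22.3 and 14.4 to 290.1, 171 and 205 CPM (log2 fold change 3.20 ± 0.33, adjusted p = 0.000379), while the neighbouring genes ZAT8 (AT3G46080) and ZAT7 (AT3G46090) rose from control means of 0.891 ± 0.136 and 0.305 ± 0.0346 CPM to 74 ± 26.4 and 23.7 ± 12.1 CPM.

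Calcium sensors and touch genes rose in part. Of 12 calmodulin-like genes 4 were called higher and none lower, among them CML37 (AT5G42380, 4.52, 4.2 and 3.04 against 58.1, 30.8 and 29.8 CPM), CML38 (AT1G76650, 14.9, 18.4 and 6.61 against 177, 90.8 and 98.5 CPM) and TCH3 (AT2G41100, 70.3, 67.5 and 50.1 against 437, 199.9 and 382 CPM). All had their highest treated value in replicate 1. RBOHD (AT5G47910), the oxidase behind the defence burst of superoxide, was the single call among 5 tested members of its family (57.5, 48.1 and 49.2 against 215, 148 and 144 CPM, log2 fold change 1.65 ± 0.30, adjusted p = 0.00433), and leaving out any single library other than NAE 18:2 replicate 2 ended that call (adjusted p between 0.0109 and 0.0219). Among 18 immune receptor genes 3 were called higher, a count that fell to 1 without DMSO replicate 2, DMSO replicate 3 or NAE 18:2 replicate 3. The chitin receptor LYK5 (AT2G33580) went from 7.89, 7.25 and 8.28 to 24.4, 19.7 and 21.3 CPM (log2 fold change 1.43 ± 0.17, adjusted p = 0.000521). The Pep receptor gene PEPR1 (AT1G73080) went from 71.2, 53.4 and 54.6 to 167, 103 and 141 CPM (log2 fold change 1.14 ± 0.18, adjusted p = 0.00233), with adjusted p between 0.0105 and 0.0135 without DMSO replicate 2 or 3 or NAE 18:2 replicate 3.

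A minority of chaperone genes was called by edgeR. Of 45 heat shock factor and chaperone genes 6 were called higher and 1 lower, beside 5.68% and 3.03% of all tested genes. At an unadjusted p under 0.05, 20 lay higher and 4 lower, beside 4651 and 4500 of the 20138 tested genes. The lower call was lost with the replicate block, in the fit of the 6 libraries and without any single library other than NAE 18:2 replicate 2. CLPB4 (AT2G25140), the mitochondrial disaggregase, went from 25.1, 23.5 and 25.8 to 188, 165 and 148 CPM (log2 fold change 2.69 ± 0.32, adjusted p = 0.000715), HSFA4A (AT4G18880), a factor linked to reactive oxygen, from 15.8, 12.7 and 11.1 to 76.1, 56.7 and 61.5 CPM (log2 fold change 2.24 ± 0.26, adjusted p = 0.000672), and HSFB2A (AT5G62020) from 5.73, 6.28 and 8.66 to 33, 24.1 and 26 CPM (log2 fold change 1.95 ± 0.20, adjusted p = 0.000315). With DESeq2 in place of edgeR, 11 members of this list were called higher. HSP90.1 (AT5G52640), a cytosolic chaperone, measured 41.5, 23.8 and 62.9 and 351, 262 and 214 CPM (adjusted p = 0.00727) and leaving out any single library ended its call, with adjusted p between 0.0141 and 0.0298.

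In the endoplasmic reticulum 3 of 17 tested folding genes were called higher and 4 lower, with a median log2 fold change of -0.77. The factor BZIP60 (AT1G42990), which is spliced in the unfolded protein response, rose from 33.6, 31.9 and 36.4 to 186, 158 and 178 CPM (log2 fold change 2.30 ± 0.12, adjusted p = 3.61e-05). The inducible lumenal chaperone BIP3 (AT1G09080) went from 0.288, 0.513 and 0.722 to 17.5, 11 and 17 CPM (log2 fold change 4.86 ± 0.63, adjusted p = 0.000976) and the cochaperone ERDJ3A (AT3G08970) from 5.44, 4.98 and 10.4 to 47.7, 44.5 and 46.1 CPM (log2 fold change 2.68 ± 0.36, adjusted p = 0.00121). The abundant calreticulin gene CRT1b (AT1G09210), which folds glycoproteins, fell from 641, 609 and 549 to 215, 292 and 240.1 CPM (log2 fold change -1.32 ± 0.20, adjusted p = 0.00165). Calnexin CNX1 (571, 523 and 531 against 161, 288 and 191 CPM), BIP2 (780.2, 653 and 609 against 247, 397 and 268 CPM), whose transcript is 97.2% identical to that of BIP1 over the aligned part, and ATERDJ3B (184, 158 and 139 against 61.2, 101 and 66.7 CPM) fell as well. Their calls rested on the libraries included: the count of 4 became 1 without DMSO replicate 1 or 2 or NAE 18:2 replicate 1 or 3, 2 without DMSO replicate 3 and 8 without NAE 18:2 replicate 2. None of 39 proteasome genes was called by edgeR or DESeq2, with log2 fold changes between -0.42 and 0.50 and 1 higher and 3 lower at an unadjusted p under 0.05.

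Several genes of ion uptake and transport fell. SKOR (AT3G02850), the channel that loads potassium into the xylem, measured 35.4, 19.8 and 17.4 CPM in DMSO roots and 0.243, 0.303 and 0.362 CPM in NAE 18:2 roots, a fitted 82-fold fall (log2 fold change -6.36 ± 0.37, adjusted p = 4.63e-05), and it overlaps AT3G02840 in the annotation. The related outward channel GORK (AT5G37500), found in guard cells and root hairs, went the other way, from 11.6, 10.9 and 15.1 to 78, 79.9 and 63.7 CPM (log2 fold change 2.51 ± 0.31, adjusted p = 0.000847). SULTR1;2 (AT1G78000), the main sulfate importer of the root surface, fell from 954, 535 and 685 to 124, 79 and 69.6 CPM (log2 fold change -3.05 ± 0.41, adjusted p = 0.00117). Of 15 tested genes of sulfur uptake and use 1 was called higher and 2 lower, beside 5.68% and 3.03% of all tested genes. The higher count was 0 without DMSO replicate 1 or NAE 18:2 replicate 1, and it was 2 without NAE 18:2 replicate 2. Both groups of SKOR values and of SULTR1;2 values were far apart, and no gene of the marker lists of xylem and phloem cells was called by edgeR or DESeq2, with 1 xylem marker and no phloem marker lower and none higher at an unadjusted p under 0.05.

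Of 17 tested nitrate genes 2 were called higher and 4 lower. Among those that fell, NRT1.1 (AT1G12110), a transporter and nitrate sensor, went from 617, 417 and 799 to 80.6, 162 and 74.3 CPM (log2 fold change -2.58 ± 0.46, adjusted p = 0.00388) and NRT2:1 (AT1G08090), the main high-affinity importer, from 71.3, 39.8 and 77.9 to 4.03, 11.4 and 4.52 CPM (log2 fold change -3.29 ± 0.51, adjusted p = 0.00209). Both nitrate reductases rose, NIA1 (AT1G77760) from 97, 81.8 and 71 to 496, 202 and 238 CPM (log2 fold change 1.84 ± 0.37, adjusted p = 0.00647) and NIA2 (AT1G37130) from 469.7, 355 and 268 to 1649, 875 and 1240.0 CPM (log2 fold change 1.73 ± 0.29, adjusted p = 0.00282). LBD38 (AT3G49940) and LBD39 (AT4G37540), repressors of nitrate genes that nitrate itself induces, fell from means of 115 ± 0.712 and 41.3 ± 5.92 CPM to 53.2 ± 5.82 and 12.1 ± 2.83 CPM. The replicates differed in this group, since NRT1.1 and NRT2:1 were highest among treated libraries in replicate 2, and the count of 4 fell to 2 without NAE 18:2 replicate 1 or 3. Without NAE 18:2 replicate 1, 3 or DMSO replicate 1 or 3 NRT1.1 had adjusted p between 0.0121 and 0.0209, and NRT2:1 had 0.0108 and 0.012 without NAE 18:2 replicate 1 or 3. NIA1 had adjusted p between 0.013 and 0.0286 without any library other than NAE 18:2 replicate 2 and NIA2 between 0.0104 and 0.0158 without DMSO replicate 2 or 3 or NAE 18:2 replicate 1 or 3, so that the count of 2 higher became 0 without any of those 4 libraries and 1 without DMSO replicate 1. The cytosolic glutamine synthetase GLN1;2 (GSR2, AT1G66200), which takes up the ammonium made from nitrate, fell from 1159, 879 and 1092 to 292, 413 and 389 CPM (log2 fold change -1.57 ± 0.18, adjusted p = 0.00054).

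Iron acquisition showed 5 of 16 tested genes called lower and 1 higher. NAS1 (AT5G04950), which makes the metal chelator nicotianamine, fell from 28.7, 25.6 and 32.8 to 1.84, 1.59 and 2.53 CPM (log2 fold change -3.92 ± 0.22, adjusted p = 4.63e-05), and the master regulator FIT (FRU, AT2G28160) fell from 79.1, 45.3 and 92.8 to 24.1, 16.7 and 20.5 CPM (log2 fold change -1.88 ± 0.24, adjusted p = 0.000946). IRT1 (AT4G19690), the ferrous iron importer of the epidermis, measured 18.4, 9.21 and 27.1 CPM and 1.77, 2.23 and 0.832 CPM (log2 fold change -3.55 ± 0.58, adjusted p = 0.00269), and its adjusted p was between 0.0113 and 0.0143 without DMSO replicate 3 or NAE 18:2 replicate 1 or 3. BTS (AT3G18290), an E3 ligase that restrains the iron response, rose from 65.1, 48.6 and 61.3 to 182, 141 and 195 CPM (log2 fold change 1.51 ± 0.20, adjusted p = 0.00108). Without NAE 18:2 replicate 3 the genes called lower in this list numbered 3. The phosphate importer PHT1;1 (AT5G43350) fell from 513, 278 and 368 to 80.2, 116 and 81.6 CPM (log2 fold change -2.11 ± 0.26, adjusted p = 0.000817), with reads that a near-identical neighbour, 97.7% identical over the aligned part, could share.

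Of 28 tested water channel genes 10 were called lower and 1 higher, the latter lost without any single DMSO library, and the list had a median log2 fold change of -0.72. PIP1A (AT3G61430), a plasma membrane aquaporin, measured 1133, 803 and 1058 CPM in DMSO roots and 203, 248 and 224 CPM in NAE 18:2 roots (log2 fold change -2.2 ± 0.22, adjusted p = 0.000264). PIP2;3 (RD28, AT2G37180) went from 165, 110.2 and 214 to 19.6, 30.1 and 31.3 CPM (log2 fold change -2.65 ± 0.30, adjusted p = 0.00054) and PIP1B (AT2G45960) from 1107, 954 and 1275 to 344, 458 and 463 CPM (log2 fold change -1.45 ± 0.16, adjusted p = 0.000451). PIP2A (AT3G53420) measured 926, 681 and 1107 and 215, 265 and 408 CPM (log2 fold change -1.67 ± 0.34, adjusted p = 0.00727), and the tonoplast channel GAMMA-TIP (AT2G36830) 1043, 752 and 1224 and 243, 425 and 489 CPM (log2 fold change -1.43 ± 0.31, adjusted p = 0.00856). Leaving out any single library ended the calls of PIP2A and GAMMA-TIP, with adjusted p between 0.0109 and 0.0331, and the count of 10 fell to 5 without DMSO replicate 1 or 3 or any single NAE 18:2 library.

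Cell wall genes moved in both directions within families. Xyloglucan endotransglucosylases cut and rejoin the hemicellulose of growing walls. Of 27 tested genes 4 were called higher and 5 lower, beside 5.68% and 3.03% of all tested genes. XTR6 (AT4G25810) rose from 13.4, 14.3 and 12.1 to 206, 153 and 143 CPM (log2 fold change 3.60 ± 0.30, adjusted p = 0.000179) and XTH24 (AT4G30270) from 17.5, 24.6 and 19.2 to 140.2, 178 and 98.2 CPM (log2 fold change 2.71 ± 0.42, adjusted p = 0.00209), the latter with adjusted p of 0.0109 and 0.0116 without DMSO replicate 1 or 3. XTH31 (AT3G44990), which acts in root elongation and aluminium binding, fell from 76.6, 91.4 and 59 to 12, 16.8 and 15.3 CPM (log2 fold change -2.42 ± 0.18, adjusted p = 0.000123), and XTH19 (AT4G30290) fell from 69.2, 60.2 and 45.6 to 16.9, 20.4 and 16.7 CPM (log2 fold change -1.75 ± 0.24, adjusted p = 0.00134). The 4 higher calls became 2 without DMSO replicate 1, 2 or 3 or NAE 18:2 replicate 1, and the 5 lower calls became 8 without NAE 18:2 replicate 2. Of 21 expansin genes 2 were called lower and none higher, beside 3.03% and 5.68% of all tested genes. The lower count became 6 without NAE 18:2 replicate 2 and 1 or 0 without any other single library. None of 9 cellulose synthase genes was called by edgeR or DESeq2, with log2 fold changes between -0.66 and 0.24 and 2 lower and none higher at an unadjusted p under 0.05.

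Genes for structural proteins of root hair walls fell in part. The extensin list also takes in LRX genes and genes of proline-rich proteins (PRP). Of its 11 tested members 5 were called lower and none higher, with a median log2 fold change of -1.61. The summed transcript of the list did not fall, at 3658, 2709 and 2249 CPM in DMSO roots and 3200, 3851 and 3411 CPM in NAE 18:2 roots. EXT13 (AT5G35190) measured 61, 15.8 and 28.6 CPM in DMSO roots and 1.11, 2.88 and 0.94 CPM in NAE 18:2 roots (log2 fold change -4.47 ± 0.63, adjusted p = 0.00141), PRP1 (AT1G54970) 49.9, 10.1 and 26 and 1.22, 3.97 and 0.723 CPM (log2 fold change -3.90 ± 0.72, adjusted p = 0.00451) and PRP3 (AT3G62680) 77.6, 18.4 and 46.8 and 3.9, 10.3 and 3.9 CPM (log2 fold change -3.02 ± 0.60, adjusted p = 0.00605). XTH12 (AT5G57530), also expressed in hairs, fell from 13.3, 5.71 and 14.8 to 0.939, 0.908 and 0.434 CPM (log2 fold change -3.93 ± 0.43, adjusted p = 0.000422). DMSO replicate 2 was the lowest control for each of these 4 genes, and the 6 root hair markers, of which PRP3 is a member and the single one called, summed to 233, 85 and 193 CPM in DMSO roots and to 155, 182 and 144 CPM in NAE 18:2 roots. The root cap, xylem and phloem marker sums were also lowest among controls in DMSO replicate 2, at 12.2, 63.9 and 39.7 CPM. In whole roots, fewer cells of a type and less RNA in each cell cannot be told apart.

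The lower count of the extensin list, PRP genes included, became 1 without DMSO replicate 1 or 3 or NAE 18:2 replicate 1 or 3. There PRP1 and PRP3 missed the threshold (adjusted p between 0.0134 and 0.0294), but EXT13 and XTH12 were called without each library in turn. Genes of root hair growth had 3 of 16 called lower and none higher, with a median log2 fold change of -1.28, and 6 were called lower without NAE 18:2 replicate 2. Among 15 regulators of hair cell fate and growth, the partner factors GL3 (AT5G41315) and EGL3 (AT1G63650), which act in the cell fate switch of the epidermis, fell from 7.86, 8.46 and 8.36 to 2.78, 3.67 and 2.78 CPM (log2 fold change -1.47 ± 0.18, adjusted p = 0.000712) and from 12.7, 15.3 and 12.3 to 6.5, 5.3 and 4.77 CPM (log2 fold change -1.34 ± 0.20, adjusted p = 0.00166). Of 53 class III peroxidase genes 5 were called higher and 2 lower, beside 5.68% and 3.03% of all tested genes. Among them AT1G68850 rose from 2.48, 4.83 and 4.1 to 22.4, 27.8 and 34.2 CPM (log2 fold change 2.83 ± 0.31, adjusted p = 0.000504). The peroxidase count was 1 without DMSO replicate 2, 2 without DMSO replicate 1 or 3 and 3 without NAE 18:2 replicate 3, and 11 in a fit of the 6 libraries alone. The 2 lower peroxidase calls became 0 without DMSO replicate 2 or 3 or NAE 18:2 replicate 1 or 3, 1 without DMSO replicate 1 and 4 without NAE 18:2 replicate 2.

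Phenylpropanoid and lignin genes were called lower in 9 of 19 tested members and higher in 1, with a median log2 fold change of -1.33. FAH1 (AT4G36220), the hydroxylase that leads to syringyl lignin and sinapate esters, fell from 56.4, 39.6 and 33.1 to 6.12, 4.2 and 1.55 CPM (log2 fold change -3.49 ± 0.45, adjusted p = 0.000989). The coenzyme A ligases 4CL5 (AT3G21230) and 4CL3 (AT1G65060), of which the latter serves flavonoids, fell from 44.1, 32.3 and 44.4 to 5.56, 6.58 and 4.01 CPM (log2 fold change -2.95 ± 0.24, adjusted p = 0.000158) and from 30, 36.8 and 58.4 to 7.86, 11.9 and 9.26 CPM (log2 fold change -2.16 ± 0.31, adjusted p = 0.00146). The member that rose, CCOAMT (AT1G67980), a methyltransferase, went from 2.85, 2.6 and 2.66 to 30.6, 17.2 and 23.1 CPM (log2 fold change 3.07 ± 0.47, adjusted p = 0.00201), and missed the threshold without DMSO replicate 2 or 3 (adjusted p 0.0125 and 0.0109). Without DMSO replicate 3 the lower calls numbered 5.

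Of 7 tested flavonoid genes 3 were called lower and none higher. The list had no call without DMSO replicate 2 or NAE 18:2 replicate 1 or 3, and 1 without DMSO replicate 3 or NAE 18:2 replicate 2. The flavonol synthase FLS1 (AT5G08640) measured 99.3, 145 and 187 and 37, 74.7 and 46.7 CPM (log2 fold change -1.49 ± 0.31, adjusted p = 0.00699). Tryptophan-derived defence genes split, with 3 of 19 called higher and 4 lower. PAD3 (AT3G26830), the last enzyme of camalexin synthesis, rose from 29, 23 and 30.6 to 124, 92.2 and 92.8 CPM (log2 fold change 1.84 ± 0.24, adjusted p = 0.00105) and PEN3 (AT1G59870), which exports indolic defence compounds, from 491, 311 and 416 to 1743, 1029 and 1637 CPM (log2 fold change 1.8 ± 0.27, adjusted p = 0.00167). The indole glucosinolate regulator MYB34 (AT5G60890) fell from 78.6, 98.4 and 71.9 to 17.9, 27.8 and 20.7 CPM (log2 fold change -1.96 ± 0.20, adjusted p = 0.000342) and SUR1 (AT2G20610), a lyase of glucosinolate synthesis, from 159, 148 and 165 to 59.9, 74.4 and 71.4 CPM (log2 fold change -1.25 ± 0.14, adjusted p = 0.000449). The 4 lower calls became 2 without DMSO replicate 1 or NAE 18:2 replicate 1 or 3.

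The small CYP710A family, sterol desaturases that make stigmasterol, turned in opposite directions. CYP710A1 (AT2G34500) rose from 14.7, 5.38 and 8.17 to 174, 159 and 197 CPM (log2 fold change 4.17 ± 0.68, adjusted p = 0.00265), though without DMSO replicate 2 or 3 its adjusted p was 0.015 and 0.0146. CYP710A4 (AT2G28860) fell from 16.7, 6.64 and 19.9 to 0.209, 0.681 and 0.289 CPM (log2 fold change -5.25 ± 0.60, adjusted p = 0.000595), and its transcript is 95.7% identical to that of its neighbour CYP710A3 over the aligned part, so that reads may be split between them. CER4 (AT4G33790), a reductase that makes fatty alcohols, fell from 9.79, 10.4 and 9.01 to 0.209, 1.14 and 0.325 CPM (log2 fold change -4.18 ± 0.61, adjusted p = 0.00164), and AT5G19970, annotated as a GRAS family protein, from 18, 10.1 and 18 to 0.278, 0.719 and 0.687 CPM (log2 fold change -4.82 ± 0.37, adjusted p = 0.00013).

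Calls among auxin genes went in both directions. Of 41 GH3 and SAUR genes 3 were called higher and 6 lower, beside 5.68% and 3.03% of all tested genes. Their median log2 fold change was -0.75. GH3.17 (AT1G28130), which joins auxin to glutamate, fell from 42.8, 30.8 and 29.4 to 3.41, 9.61 and 3.98 CPM (log2 fold change -2.65 ± 0.38, adjusted p = 0.00154) and GH3.1 (AT2G14960) from 15.1, 10.6 and 9.04 to 1.6, 2.54 and 1.66 CPM (log2 fold change -2.63 ± 0.27, adjusted p = 0.00032), whereas GH3.3 (AT2G23170) rose from 2.51, 2.54 and 3.84 to 19.7, 36.7 and 33.8 CPM (log2 fold change 3.30 ± 0.54, adjusted p = 0.0026). GH3.3 was not called without DMSO replicate 1 or 2 or NAE 18:2 replicate 3 (adjusted p between 0.0111 and 0.016), and the 3 higher calls became 0 without DMSO replicate 1 or 2 and 1 without NAE 18:2 replicate 1 or 3. In the circadian list, the morning factors LHY (AT1G01060) and RVE8 (AT3G09600) fell from means of 7.68 ± 1.09 and 11.7 ± 1.35 CPM to 2.67 ± 0.598 and 3.26 ± 0.795 CPM, and LHY was not called without DMSO replicate 3 or NAE 18:2 replicate 1. Evening genes TOC1, PRR5 and ELF4 lay just above 2-fold, with log2 fold changes of 1.00, 1.04 and 1.15, and upper quartile scaling put TOC1 and PRR5 under it. The 3 higher clock calls became 0 without DMSO replicate 3 or NAE 18:2 replicate 1 or 3 and 1 without DMSO replicate 2.

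Ribosomal protein genes shifted by a small amount. Of 218 tested members 1 was called higher and 4 lower, and the count of 4 became 1 without DMSO replicate 2 or 3 or NAE 18:2 replicate 1 or 3. The median log2 fold change was -0.44, and 139 members (beside 23.1% of all tested genes) had all treated libraries below all controls. AT3G57490 (a small subunit protein of the S5 family) fell from 38.3, 49.7 and 45.9 to 20.9, 23.3 and 19.4 CPM (log2 fold change -1.13 ± 0.17, adjusted p = 0.00165). Lists of cytokinin response (type-A ARR), mitosis, root stem cells and endoplasmic reticulum bodies had no gene called by edgeR, with log2 fold changes between -1.56 and 0.98, -0.65 and 0.76, -1.69 and 0.67, and -0.41 and 0.85. In the same order 1, 2, 2 and 1 genes lay higher and 3, 0, 8 and 1 lower at an unadjusted p under 0.05. DESeq2 called 1 root stem cell gene lower, as did both other scalings, the fit without a filter, that of the 6 libraries and that without NAE 18:2 replicate 3, and upper quartile scaling or leaving out DMSO replicate 3 or NAE 18:2 replicate 3 gave 1 lower call in type-A ARR. The 4 meristem markers summed to between 51.6 and 63.7 CPM in DMSO roots and to between 31.3 and 40.8 CPM in NAE 18:2 roots. None was called by edgeR, but 3 of the 4 had each treated library below every control and lay lower at an unadjusted p under 0.05, and 1 was called lower by DESeq2, both other scalings, the fit without a filter, that of the 6 libraries and that without NAE 18:2 replicate 3.

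**Figure D4:**
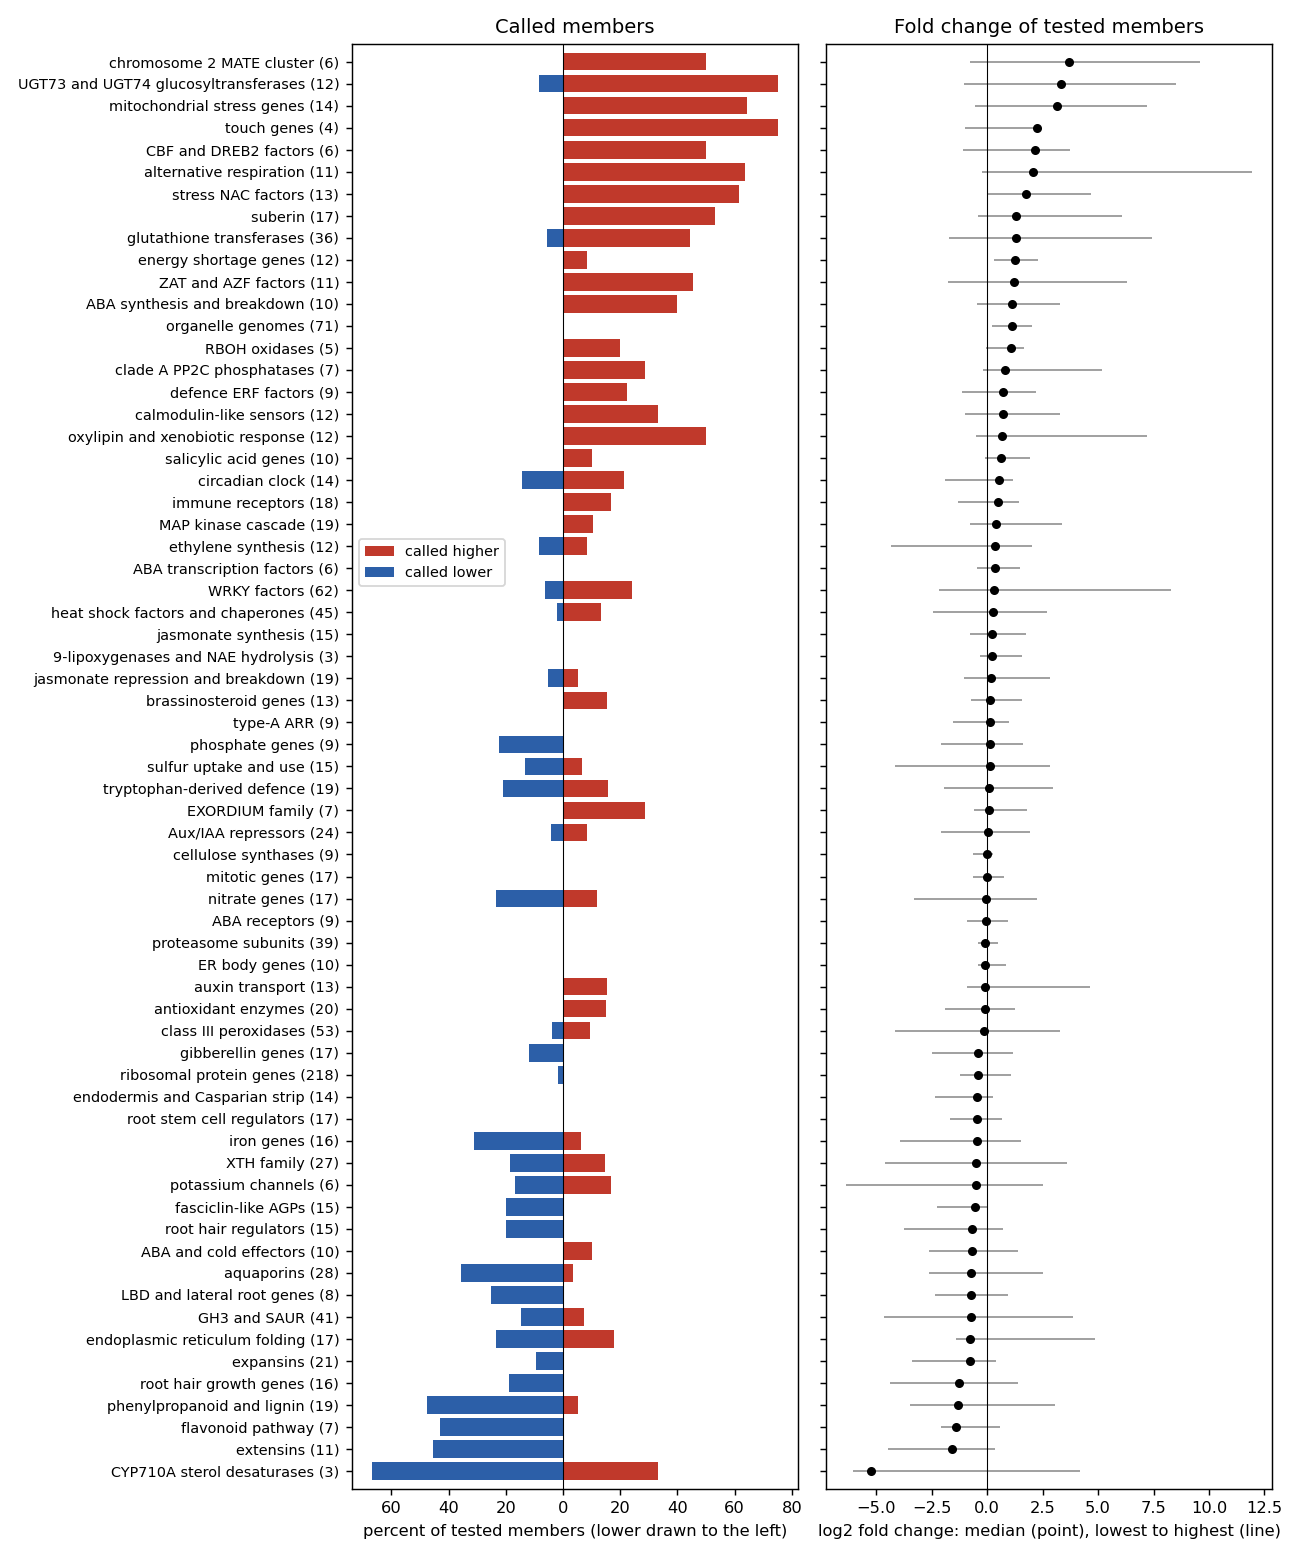
For each list (number of tested members in parentheses), the left panel gives the percent of members called higher (red, to the right) and lower (blue, to the left), and the right panel the median log2 fold change (point) with the lowest and highest member (line). Lists are ordered by their median, from the MATE cluster at 3.70 down to the CYP710A family at -5.25, and the list medians are set against -0.02 over all tested genes.

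Roots given NAE 18:3 were compared with the same DMSO libraries, and in them 1197 genes were called higher (5.94%) and 3376 lower (16.8%). Side by side, AOX1A measured 614, 561 and 619 CPM with NAE 18:2 and 237, 464 and 312 CPM with NAE 18:3, and CYP81D8 395, 282 and 305 and 132, 242 and 139 CPM. ERF6 and NPR3, a salicylate receptor, were lower in NAE 18:2 roots, at 166 ± 69.3 and 110.2 ± 12.6 CPM against 441 ± 37.3 and 324 ± 15.9 CPM (log2 contrast -1.28 and -1.42, adjusted p = 0.00449 and 0.000168). Higher in NAE 18:2 roots were GSTU25 and ABCB4, at 1408 ± 97.2 and 2022 ± 17 CPM against 318 ± 143 and 547 ± 283 CPM (log2 contrast 2.28 and 2.02, adjusted p = 0.00203 and 0.00183). Among genes that fell against DMSO, NRT1.1 measured 80.6, 162 and 74.3 CPM with NAE 18:2 and 11.8, 30.3 and 14.5 CPM with NAE 18:3 (log2 contrast 2.62, adjusted p = 0.002) and PIP1A 203, 248 and 224 and 33.4, 55.5 and 52.1 CPM (log2 contrast 2.4, adjusted p = 0.000116). For SKOR the treatments gave 0.243, 0.303 and 0.362 and 0.522, 0.272 and 0.445 CPM, and the contrast missed the threshold (adjusted p = 0.612). The doses were unequal in all these comparisons.

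The effect of NAE 18:2 was tested for a difference between roots and cotyledons with an interaction term over all 27 libraries. It was larger in roots, in the sense of more positive, for 415 of 21643 tested genes (1.92%) and smaller for 218 (1.01%). ABCG40 and DOGT1 were among the genes with a larger effect in roots. ABCG40 rose from 4.04 ± 0.51 to 1179 ± 255 CPM in roots and stood at 9.36 ± 2.98 and 121 ± 56.8 CPM in cotyledons (interaction 4.48 ± 0.86 on the log2 scale, adjusted p = 0.00265), and DOGT1 rose from 0.28 ± 0.218 to 103 ± 17.2 CPM in roots and stood at 22.7 ± 14.9 and 153 ± 64.9 CPM in cotyledons (interaction 5.79 ± 1.05, adjusted p = 0.00183). For AOX1A the interaction missed the threshold (adjusted p = 0.0444), with 38.1 ± 29.9 CPM in DMSO and 178 ± 80.4 CPM in NAE 18:2 cotyledons.

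The nitrate reductases and 2 wall genes also differed between the organs by this test. NIA1 rose from 83.3 ± 13.1 to 312 ± 160.0 CPM in roots and stood at 1021 ± 146 and 172 ± 78 CPM in DMSO and NAE 18:2 cotyledons (interaction 4.45 ± 0.50, adjusted p = 2.12e-05), and NIA2 measured 1757 ± 96.6 and 778 ± 288 CPM in cotyledons (interaction 2.94 ± 0.45, adjusted p = 0.000466). XTH24 stood at 295 ± 13.4 and 232 ± 46.3 CPM in cotyledons (interaction 3.09 ± 0.46, adjusted p = 0.000346), and XTR6 at 80 ± 5.2 and 91.6 ± 8.88 CPM (interaction 3.44 ± 0.54, adjusted p = 0.000544). SKOR stood in cotyledons at 3.18 ± 1.67 CPM with DMSO and 3.47 ± 2.88 CPM with NAE 18:2 (interaction -6.45 ± 0.88, adjusted p = 0.000159). FAH1 measured 243 ± 34 and 157 ± 16.9 CPM in cotyledons (interaction -2.83 ± 0.52, adjusted p = 0.00183). SULTR1;2 stood there at 8.82 ± 2.12 and 10.5 ± 1.8 CPM (interaction -3.26 ± 0.53, adjusted p = 0.000746).

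**Figure D5:**
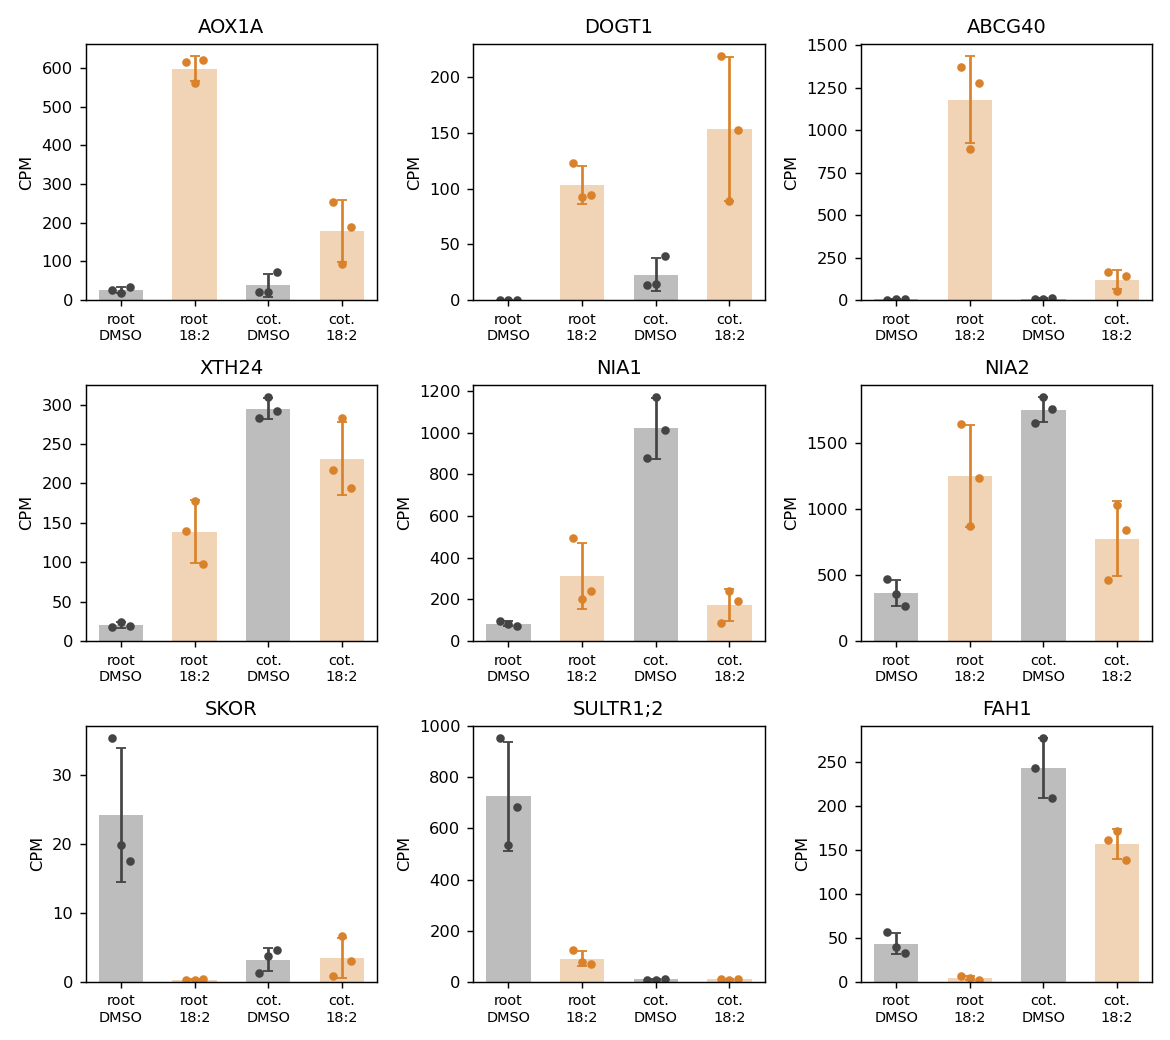
Bars are mean CPM with standard deviations over 3 libraries and dots are single libraries, for DMSO (grey) and NAE 18:2 (orange) in roots (left pair) and cotyledons (right pair) of each panel, all axes starting at 0. NIA1 and NIA2 have higher means with NAE 18:2 in roots and lower means in cotyledons, and SKOR falls in roots while its error bars overlap in cotyledons.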

How the data were processed

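Poly(A) RNA of roots, cotyledons and whole seedlings was sequenced as strand-marking libraries with paired 75-base reads. The authors trimmed reads with Trimmomatic (0.36), aligned them to TAIR10 with STAR (2.6) and deposited raw counts per gene for 27 libraries. The program, annotation and strand setting used for counting are not given in the sources used here. A second table, in which the authors divided the counts by 1 size factor per library, was not used.

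The 9 root libraries were fitted together in edgeR 4.0.16 (R 4.3.3) with TMM factors, filterByExpr defaults and the robust quasi-likelihood test, and the organ contrast used all 27 libraries. Calls needed a Benjamini-Hochberg adjusted p under 0.01 and a log2 fold change beyond 1 in size. Every adjusted p in the text comes from these edgeR fits. Root depth was 19812956 to 26798705 counts for the 6 libraries compared, and the counting floor was set at 3 counts per library. The test was also run on simulated counts of 19955 genes for the root contrast. In these 200 genes were changed, all drawn from genes above a minimum mean count, and all others were left unchanged. The test recovered 83 of 100 genes changed by 2 and 96 of 100 changed by 3 on the log2 scale, with 1 false call. The recovery does not extend to genes of few counts.

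Alternatives were DESeq2 size factors, upper quartile scaling, no low-count filter, DESeq2 1.42.0, a replicate block, the 6 libraries alone, all 27 libraries, and leaving out each library. Genes were named if they had the 12 highest or lowest log2 fold changes among called genes of at least 5 CPM without overlap, the 8 largest rises or falls in mean CPM, or were among the 4 called members of a list with the largest change in each direction and at least 5 CPM. The comparison, its members and the gene lists were chosen with earlier results of these data known. Symbols, gene models and the sequences before annotated starts come from RefSeq TAIR10.1, to which 32548 of 32833 gene IDs matched, and 3 list members could not be matched. Near copies were transcripts with at least 95% identity by BLAST+. No sequencing batch could be examined, since the labels give none.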

Additional observations from a re-analysis of the deposited data

Results flagged for a closer look

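The effect of NAE 18:2 on 43 of the 182 genes that met the naming rule differed between roots and cotyledons by the edgeR interaction test (adjusted p under 0.01 and a difference over 1 on the log2 scale, over 27 libraries). Each value is the log2 fold change in roots minus that in cotyledons. It was positive for 28 genes and negative for 15.

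The largest positive differences were AT1G55230 7.67, ZAT7 5.87, DOGT1 5.79, AT3G46080 5.17, BIP3 4.90, AT5G43450 4.85, NDA1 4.63, ERF71 4.49, ABCG40 4.48 and NIA1 4.45. These include the glucosyltransferase DOGT1, the transporter ABCG40 and the zinc finger factors ZAT7 and ZAT8 (AT3G46080). The next were XTR6 3.44, CML37 3.42, CYP94B3 3.20, XTH24 3.09, GH3.3 2.95, NIA2 2.94, NCED3 2.81, SAUR9 2.81, CML38 2.80 and IAA10 2.75. The remaining positive differences were TCH4 2.69, ZF2 2.52, GSTU19 2.44, ERF6 2.39, EXO 2.33, NAC044 2.02, PEPR1 1.7 and EXL2 1.63.

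The negative differences were SKOR -6.45, SULTR1;2 -3.26, AT5G19970 -3.21, NAS4 -2.84, FAH1 -2.83, AT2G36690 -2.75, XTH31 -2.49, NRT1.1 -2.41, FLA13 -2.34, GH3.17 -2.24, AT2G46690 -1.81, AT5G59850 -1.35, AT2G20450 -1.31, GSR2 -1.29 and SUR1 -1.15. The transporters SKOR, SULTR1;2 and NRT1.1 and the lignin gene FAH1 are among them. No cause of these differences was tested.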

How the results depend on the processing

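All 182 genes named by the rule kept their direction under 13 alternatives, and 101 kept their call in each, while 81 lost it in at least 1. Leaving out NAE 18:2 replicate 1 ended 60 of these calls, and DMSO replicate 2, DMSO replicate 3 or NAE 18:2 replicate 3 ended 59 each. Leaving out single libraries gave 640 to 1150 genes higher and 262 to 801 lower in NAE 18:2 roots than in DMSO roots, 206 to 556 with a larger and 84 to 319 with a smaller effect in roots than in cotyledons, and 2256 to 3240 higher and 288 to 595 lower in NAE 18:2 than in NAE 18:3 roots. DESeq2 called 921 genes lower than DMSO, 665 with a larger and 461 with a smaller effect in roots. Upper quartile scaling gave 352 with a smaller effect in roots and 654 lower than NAE 18:3 roots, and the fit of all 27 libraries gave 842 of the latter. Deviations from the group means correlated at 0.0617, -0.00412 and 0.0855 between replicates with the same number in both groups. Between replicates with unlike numbers the correlations ran from -0.129 to 0.0838. Whether a shared number marks a shared culture or harvest is not given in the labels, and these values cannot settle it. With the replicate block 819 genes were called higher and 373 lower. The fit of the 6 libraries of the contrast alone, without the NAE 18:3 roots, called 1312 higher and 644 lower. In the 100 bases before the start, the share with the as-1 core among genes called lower minus that among all genes was 0.12 percentage points, and for the G-box among genes called higher it was -0.61, each opposite in sign to the longer window. The causes of these shifts were not tested. Depth limits genes of few counts, and 49 called genes had every DMSO library at or under 3 counts. Lists described as having edgeR calls in 1 direction and none in the other had at most 3 members in that other direction at an unadjusted p under 0.05, and of these lists DESeq2 called 2 ZAT and AZF genes and 1 calmodulin-like gene lower and 1 root hair growth gene higher. For 3 lists the text gives edgeR calls in 1 direction alone. There DESeq2 called 1 immune receptor gene and 1 defence ERF gene lower and 1 gibberellin gene higher. At an unadjusted p under 0.05, 4 gibberellin genes lay higher.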

Other observations

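Genes of energy shortage, which are known to rise when sugar runs low, had a median log2 fold change of 1.23 over 12 tested members, all above 0, and 6 (beside 28.1% of all tested genes) had every NAE 18:2 library above every DMSO library. A single member was called higher by edgeR, while DESeq2 called 6, the fit of all 27 libraries 5 and the fit without NAE 18:2 replicate 2 called 4, and without DMSO replicate 2 or 3 or NAE 18:2 replicate 1 or 3 none was called. Among 20 antioxidant enzyme genes 3 were called higher and none lower, with a median of -0.10, and without DMSO replicate 1 or 2 or NAE 18:2 replicate 1 or 3 the count was 1. Among 15 fasciclin-like arabinogalactan protein genes 3 were called lower, none without DMSO replicate 2 or 3 or NAE 18:2 replicate 1, and 1 without DMSO replicate 1 or NAE 18:2 replicate 3. Of 13 brassinosteroid genes 2 were called higher, and 1 without DMSO replicate 1 or 2 or NAE 18:2 replicate 2. Of 17 gibberellin genes 2 were called lower, and 1 without any single library other than NAE 18:2 replicate 2, whose removal gave 2 lower and 2 higher.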
